A study of Mus musculus with 6 samples.

Results

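The genes described here are a named list of 40 mouse genes that copy DNA or start S phase, each read through the probe set annotated to that gene alone with the highest mean over the 6 arrays. Of the 40 genes, 39 had such a probe set, out of 18194 genes in all, and Chaf1a was not analysed here. All 39 lay above the filter on dim probe sets, which kept 10208 genes and was set on the mean over both arms, without regard to their difference. The arrays held RNA of 32D, a mouse myeloid cell line that depends on interleukin-3 (IL-3). The empty vector group (construct A1-EV, 3 arrays) and the group expressing miR-9 and miR-9* (construct C2-MiR-9, 3 arrays, miR-9/9* below) both grew in RPMI with 10% fetal calf serum, penicillin, streptomycin and 10 ng/ml murine IL-3. Arrays of each group are numbered 1 to 3. The replicates are called independent, but the labels do not say how the cultures were separated, whether cells of an arm came from 1 clone or from a pool, or what a number stands for beyond a name, so p-values measure the spread between these samples, which may be technical. The level of miR-9 itself is not analysed here. The comparison asks whether replication genes differed once the cells expressed both strands of this microRNA, and the shared numbers allow a further question, how far these genes differed between replicates.

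DNA is copied once per cell cycle. In G1 the origin recognition complex, CDC6 and CDT1 load the MCM helicase onto origins, which licenses them, and cyclin E with CDK2 and the DBF4-dependent kinase CDC7 then recruit CDC45 and GINS to start unwinding. Primase and the polymerases copy the strands while PCNA, a sliding clamp placed by replication factor C (RFC), holds them on the template, and ribonucleotide reductase and thymidylate enzymes supply the nucleotides. Many of these genes are transcribed by E2F factors, which the retinoblastoma protein holds in check until cells commit to S phase. In factor-dependent myeloid lines such as 32D, IL-3 keeps this programme running, so the genes serve as a readout of proliferation.

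The introduced microRNA yields 2 mature strands with different seeds, shown because bases 2 to 8 choose the targets. Both are given 5′ to 3′ from RefSeq (GRCm38.p6), with the seed in capitals, and the same strands are listed for 3 loci, of which Mir9-1 lies on the plus strand of chromosome 3, with miR-9 at chr3:88215613-88215635 and miR-9* at chr3:88215652-88215673.
miR-9 (miR-9-5p): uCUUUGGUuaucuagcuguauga
miR-9* (miR-9-3p): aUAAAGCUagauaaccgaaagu

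Promoter windows of 300 bases, 250 before to 50 after the start, were matched by symbol in RefSeq (GRCm38.p6) for 35 of the 40 genes, not for Gins1, Gins2, Mcm4, Ccne2 and Pole. They were searched on both strands for the E2F word in 4 forms, which were TTCCCGC, the form TTCGCGC, the form TTGCCGC and the form TTGGCGC, and for the CCAAT box as the letters CCAAT, words settled on after several had been tried on these windows. An E2F word was present in 23 of the 35 genes (65.7%), against 10.9% of all 27025 genes with a window of this length. CCAAT was present in 20 of 35 (57.1%), against 41.1% of all genes. The windows of these genes were also richer in G and C, with a median of 63.0% against 52.8%, and a match is a description of the letters, not of bound protein. By role, an E2F word was found in 8 of 10 polymerase, clamp and fork genes, 4 of 5 chromatin and histone supply genes, 6 of 9 licensing genes, 3 of 6 S-phase entry regulators and 2 of 5 nucleotide supply genes. The nucleotide supply group also holds Ung, which removes uracil from DNA and does not supply nucleotides. The 48 matches found in all windows lay at a median of 36 bases before the start of their window's transcript, 33 of them within 100 bases of it. They are not all distinct sites. Overlapping words of opposite strands count separately, and a site in overlapping windows of Cdc7 counts in each. Windows are shown for 5 genes: Mcm6, which held the most words, Rfc3, Prim1 and Rrm2, which held fewer and whose signals differed between replicate numbers below, and Pcna, which also differed and held none of these E2F forms. Capitals mark E2F words and CCAAT on either strand. E2F words of opposite strands overlap at 2 places in Mcm6, and the E2F word of Prim1 runs into its CCAAT. The windows are chr1:128359656-128359955 (minus strand) for Mcm6, chr5:151651159-151651458 (minus) for Rfc3, chr10:128014965-128015264 (plus) for Prim1, chr12:24708004-24708303 (plus) for Rrm2 and chr2:132253131-132253430 (minus) for Pcna, written 5′ to 3′ on the gene's strand.
Mcm6: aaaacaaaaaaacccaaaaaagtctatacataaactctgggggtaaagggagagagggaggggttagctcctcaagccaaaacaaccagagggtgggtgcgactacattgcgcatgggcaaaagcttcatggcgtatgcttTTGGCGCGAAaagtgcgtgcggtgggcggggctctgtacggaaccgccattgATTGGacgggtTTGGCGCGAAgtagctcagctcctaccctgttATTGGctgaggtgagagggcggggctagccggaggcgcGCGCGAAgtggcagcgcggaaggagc
Rfc3: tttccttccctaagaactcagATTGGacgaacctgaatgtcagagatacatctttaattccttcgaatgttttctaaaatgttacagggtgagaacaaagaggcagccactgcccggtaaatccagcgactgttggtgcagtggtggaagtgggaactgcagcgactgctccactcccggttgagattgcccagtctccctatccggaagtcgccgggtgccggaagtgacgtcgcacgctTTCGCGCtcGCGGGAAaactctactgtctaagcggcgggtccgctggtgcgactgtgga
Prim1: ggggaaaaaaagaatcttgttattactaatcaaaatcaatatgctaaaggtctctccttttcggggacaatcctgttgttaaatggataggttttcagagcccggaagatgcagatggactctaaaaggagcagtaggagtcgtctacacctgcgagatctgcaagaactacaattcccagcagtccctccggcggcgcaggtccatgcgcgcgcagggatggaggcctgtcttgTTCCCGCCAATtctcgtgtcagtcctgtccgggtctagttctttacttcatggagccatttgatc
Rrm2: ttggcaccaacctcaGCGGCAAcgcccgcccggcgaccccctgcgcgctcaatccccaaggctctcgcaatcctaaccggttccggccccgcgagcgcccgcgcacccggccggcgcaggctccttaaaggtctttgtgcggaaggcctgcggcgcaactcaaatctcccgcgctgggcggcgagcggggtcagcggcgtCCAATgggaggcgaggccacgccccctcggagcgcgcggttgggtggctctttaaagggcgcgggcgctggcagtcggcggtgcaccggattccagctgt
Pcna: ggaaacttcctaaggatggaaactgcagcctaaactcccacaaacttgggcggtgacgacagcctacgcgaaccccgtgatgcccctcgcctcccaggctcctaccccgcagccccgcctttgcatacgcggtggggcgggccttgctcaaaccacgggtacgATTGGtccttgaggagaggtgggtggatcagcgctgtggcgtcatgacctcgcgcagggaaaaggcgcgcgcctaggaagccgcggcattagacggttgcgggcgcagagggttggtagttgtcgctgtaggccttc

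Each array gives 1 MAS5 signal per probe set, with a trimmed mean of 100 over the array, and the number of arrays limits the precision. Median signals were 12.0 and 12.9 on the 2 arrays of replicate number 3 and 14.0 to 15.2 on the others. Spearman correlations between arrays ran from 0.919 to 0.942, and 0 pairs of arrays were identical. Markers of lymphoid cells summed to signals of 36.1 to 62.5 over 6 genes, 1 of them above the filter, while the primary granule protease Prtn3 read 568 to 1692. Summed signals of 5 primary granule markers were 2489.6, 2688 and 1009.5 on the empty vector arrays 1, 2 and 3 and 3995, 1587 and 1326 on the miR-9/9* arrays, so that the sum of number 3 was lowest in both arms, with Elane, a defining member, at 1.06 to 15.1. In the miR-9/9* arm only Prtn3 was itself lowest in number 3, at 1271, 1263 and 618. The other markers, Mpo, Elane, Ctsg and Ms4a3, were lowest in number 2 in that arm. Sums for 11 late neutrophil markers were 4409, 1544 and 1617 against 3128, 739 and 1442 (Camp at 1.07 to 6.92), and those for 5 eosinophil markers were 1377, 250.4 and 386 against 3774, 279 and 1065 (Ccr3 at 0.533 to 6.68). Of the erythroid markers 10 were measured, with sums of 3257, 2785 and 3978 against 3899, 3839 and 3993 (Alas2 at 0.498 to 1.54, Slc4a1 at 0.699 to 6.28). The part of these markers in the differences below was not tested.

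Expression of miR-9/9* moved none of the 39 replication genes past the threshold. With limma and Benjamini-Hochberg adjustment over 10208 genes, 0 rose and 0 fell without a block (background 0.0588% of all genes called) and 0 with the replicate number as a block (background 2.96%). At an unadjusted p under 0.05 the counts were 0 without the block (background 4.6%) and 9 with it (background 17%), 5 of them higher and 4 lower in miR-9/9*. The differences ran from -0.27 (E2f1) to 0.25 (E2f2) on the log2(signal + 16) scale, with a median of 0.066 against 0.0091 over all genes, and 26 of 39 lay above 0 (66.7%, against 52.4% of all genes). After quantile normalization 29 lay above 0 and after centring arrays on their medians 23, and 33 of 39 kept their sign under all 3 scalings, the others being Fen1, Pcna, Pola1, Rfc4, Rrm1 and Slbp. The log2(signal + 16) scale understates changes of dim genes. Within the 3 same-numbered pairs, 15 genes were higher in miR-9/9* in every pair (background 21%), 5 lower in every pair (background 18%) and 19 had both signs. Signals of the arms overlapped for 36 genes, while Cdt1 and Pole lay above the empty vector on all 3 arrays (background 5.07%) and Ccne2 below it (background 4.74%).

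**Figure D1:**
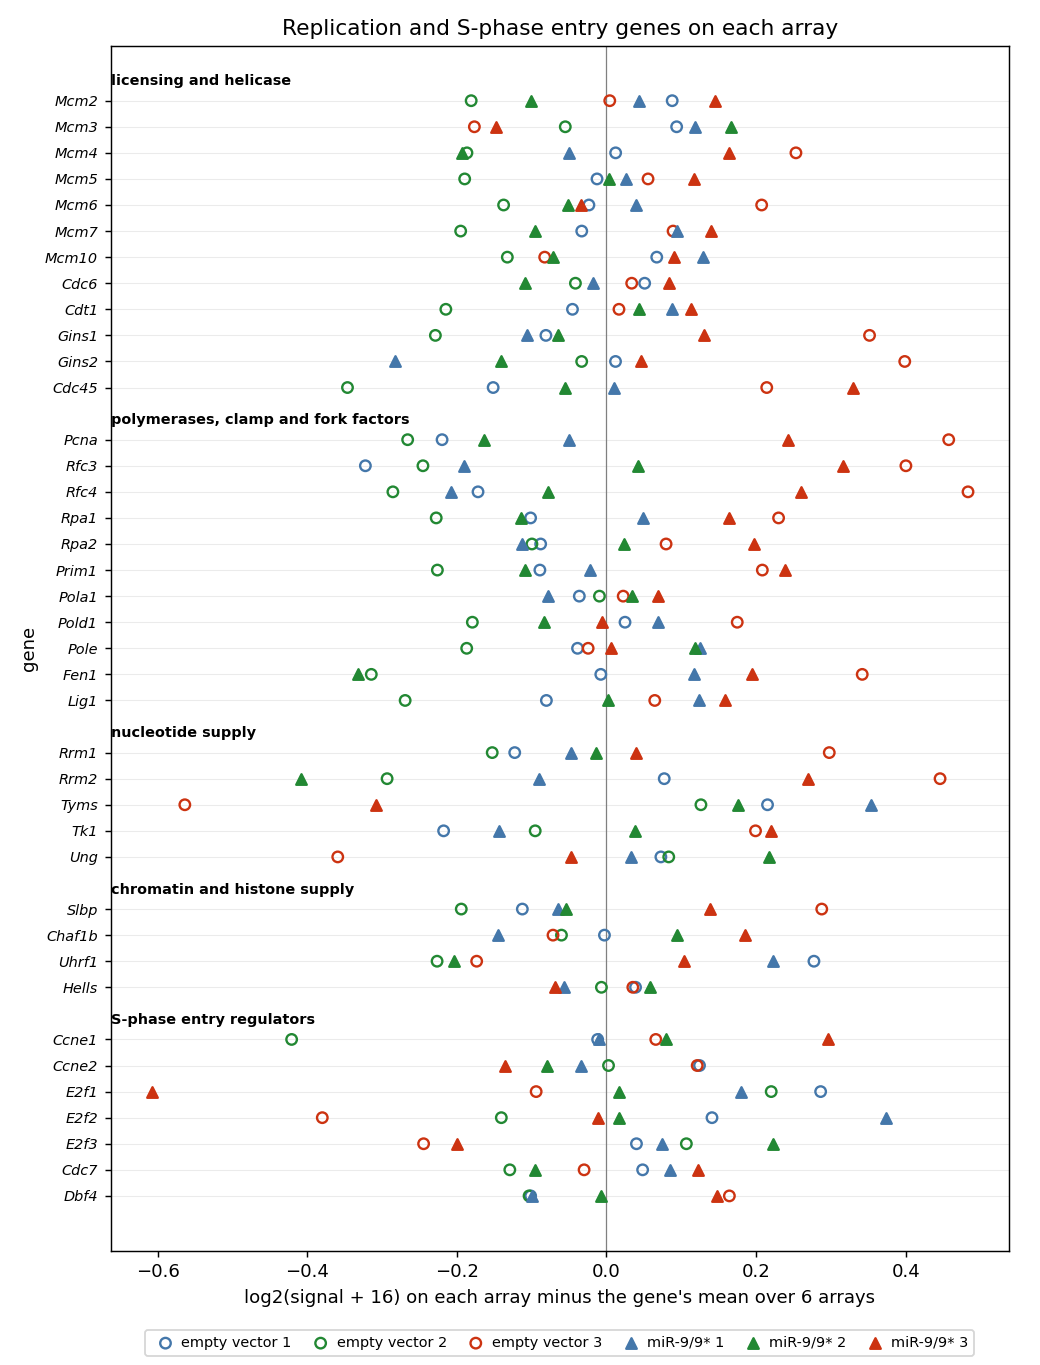
Each row is 1 gene, with points for the 6 arrays at log2(signal + 16) minus the gene's own mean (x axis, log2 units), open circles for empty vector, triangles for miR-9/9* and colour for the replicate number. Points of 1 colour lie together for most genes, with number 3 (red) above all other arrays for 17 genes and below them for 5.

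The intervals bound how large a difference could have been missed. Without the block every 95% interval stayed inside a 2-fold change in either direction, from -0.77 (E2f1) at the lowest to 0.71 (Tyms) at the highest, and 32 of 39 stayed inside 1.5-fold. With the block all 39 stayed inside 1.5-fold on this scale, between -0.54 (E2f1) and 0.48 (Ccne1), and 30 included 0. The median standard error was 0.14 without the block and 0.0766 with it. The smallest adjusted p of any of these genes was 0.178 with the block (Gins2) and 0.999 without it.

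**Figure D2:**
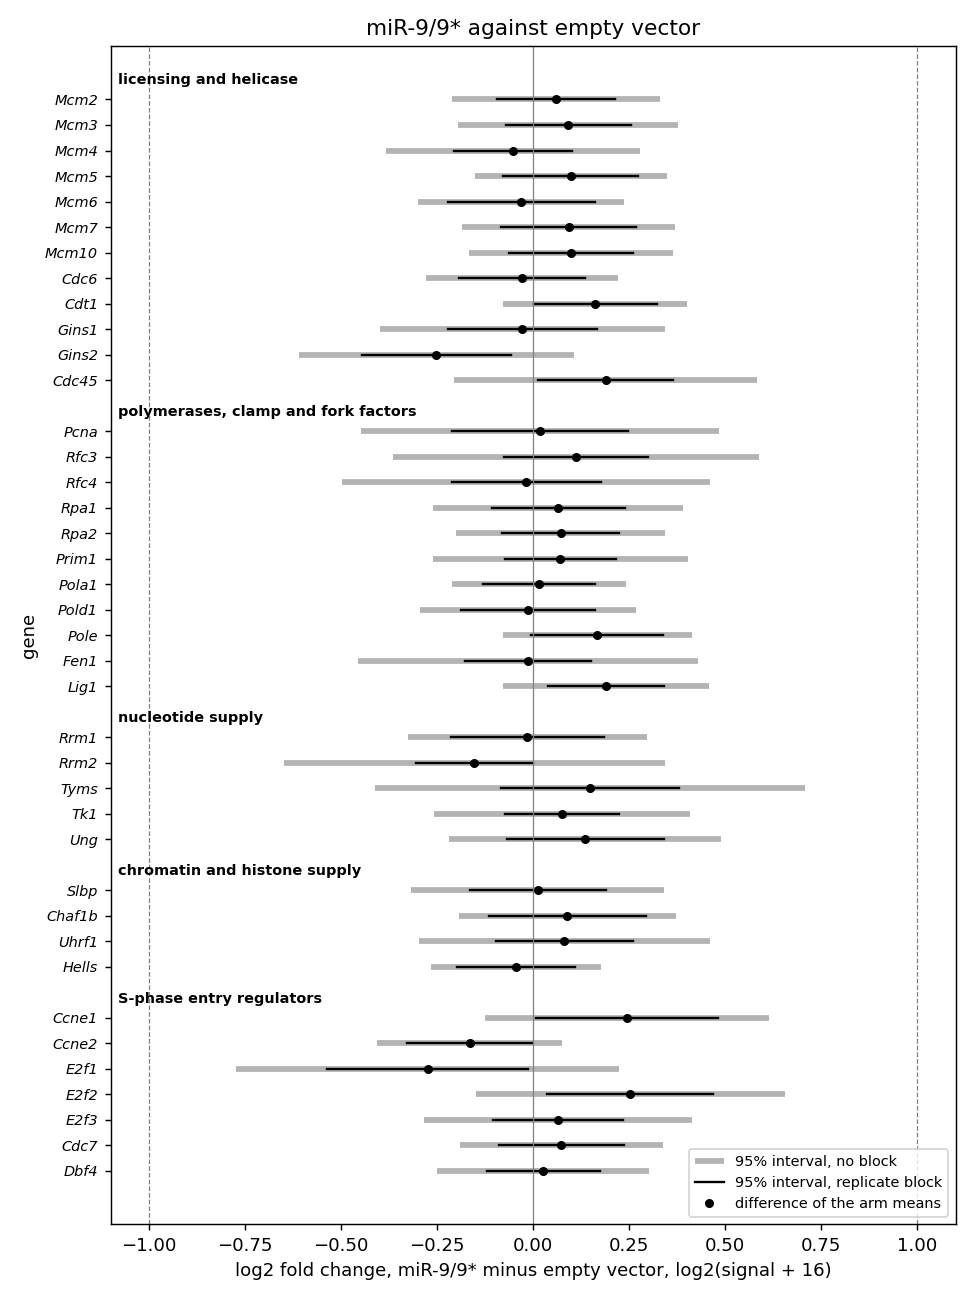
Points give the log2 fold change of each gene, miR-9/9* minus empty vector (x axis), with the 95% limma interval without a block in grey and with the replicate block in black; dashed lines mark a 2-fold change. All 39 grey intervals lie between the dashed lines, and 9 black intervals, 5 above and 4 below, leave out 0.

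None of the 12 licensing and helicase genes passed the test between the arms. Mcm2, a subunit of the helicase, read 643, 531 and 606 on the empty vector arrays and 624, 562 and 670.3 on the miR-9/9* arrays, a difference of 0.059 ± 0.12 (log2, SE). Mcm5, another subunit, read 2458, 2172 and 2577 against 2526, 2485 and 2689.8 (0.098 ± 0.11). The arms overlapped for both genes. Of the genes named Mcm the differences lay between -0.053 (Mcm4) and 0.099 (Mcm10). Cdc6, which loads the helicase, read 269, 251 and 266 against 256, 239 and 276 (-0.029 ± 0.11). Its partner Cdt1 read 1415, 1257 and 1478 against 1553, 1506 and 1581, group means of 1383 ± 114 and 1547 ± 38.2 (SD, n = 3). All 3 miR-9/9* values of Cdt1 were above the highest empty vector value, but the difference of 0.16, or 0.096 without empty vector 2, did not pass the test (limma adjusted p = 0.287 with the block). Gins2, a subunit of the GINS complex that joins the helicase, read 169, 163 and 226 in the empty vector arm and 135, 150.3 and 173 in the miR-9/9* arm. It was lower in each of the 3 pairs, with a mean difference of -0.25 (95% interval with the block -0.45 to -0.057), while its arms overlapped, the miR-9/9* array of number 3 reading above 2 of the empty vector arrays, and it did not pass the test (adjusted p = 0.178 with the block). The Gins2 difference was -0.12 without empty vector 3 and -0.16 with averaged probe sets. Its other probe set, 1452881_at, read 92.8, 87.9 and 173 against 80.4, 119 and 129. That is a difference of -0.059, with number 2 higher in miR-9/9*. Cdc45, which completes the same helicase, read 185, 159 and 243 against 209, 199 and 264 and did not pass the test (0.19, interval 0.013 to 0.37, adjusted p = 0.261 with the block). The Cdc45 difference was 0.063 without empty vector 2, 0.071 without miR-9/9* 3 and 0.064 with averaged probe sets, its other probe set, 1457838_at, reading -0.061.

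None of the 11 polymerase, clamp and fork genes passed the test between the arms. Pcna, the sliding clamp, read 3669, 3553 and 5875 with empty vector and 4127, 3814 and 5059 with miR-9/9*. Its mean difference of 0.019 ± 0.20 turned negative under some alternatives, and the number 3 arrays of both arms stood above the other 4. Pole, the catalytic subunit of polymerase epsilon, read 315, 283 and 318 against 355, 353 and 325, with the arms separated (0.17, interval with the block -0.0058 to 0.34, adjusted p = 0.312). Lig1, the ligase that joins Okazaki fragments, read 729.9, 638 and 809 against 843, 774 and 864 (0.19, interval 0.038 to 0.34, adjusted p = 0.194). Lig1 was higher in all 3 pairs with overlapping arms, and its difference was 0.10 without empty vector 2. Over the 11 genes of this role the differences lay between -0.017 (Rfc4) and 0.19 (Lig1).

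Among nucleotide supply genes the direction was mixed. Rrm2, the small subunit of ribonucleotide reductase that limits the enzyme in S phase, read 1499, 1156 and 1940.1 in the empty vector arm and 1333, 1067 and 1714 in the miR-9/9* arm. Each miR-9/9* value was below its same-numbered partner (-0.15, interval with the block -0.31 to -0.0013, adjusted p = 0.291), yet the arms overlapped widely. Tyms, thymidylate synthase, read 101, 93.8 and 52.1 against 113, 97.7 and 65.3 (0.15 ± 0.25), higher in 3 of 3 pairs. Tk1, thymidine kinase of the salvage pathway, read 372, 406 and 502 against 392, 447 and 509 (0.076 ± 0.15). Neither gene had separated arms. Of the chromatin and histone supply genes, Slbp, which binds the stem-loop of histone mRNAs, read 1393, 1316 and 1844 against 1440.1, 1451 and 1661 (0.013 ± 0.14, with the sign turned when arrays were centred on their medians). Uhrf1, which carries DNA methylation through replication, read 1044, 732 and 759.5 against 1004, 744 and 924 (0.082 ± 0.17). All 4 measured genes of that role had pairs of both signs.

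None of the 7 S-phase entry regulators passed the test between the arms, and the differences of E2f1, E2f2, E2f3 and Ccne1 changed with single arrays and probe sets. E2f1, an activating E2F, read 99.8, 94.6 and 72.9 with empty vector and 91.5, 80.0 and 46.3 with miR-9/9*. It was lower in 3 of 3 pairs (-0.27 ± 0.22, interval with the block -0.54 to -0.013, adjusted p = 0.267), with means of 89.1 ± 14.2 and 72.6 ± 23.5 (SD, n = 3). E2f2, another activator, read 121, 96.4 and 79.2 against 145, 109 and 107, higher in 3 of 3 pairs (0.25 ± 0.18, interval 0.037 to 0.47, adjusted p = 0.217). E2f3 read 214, 225 and 173 against 219, 245 and 178 (0.065 ± 0.15). The difference of E2f1 was -0.040 without miR-9/9* 3 and 0.026 when all its probe sets were averaged, including 1447840_x_at, which lay below the filter. That of E2f2 was 0.13 without empty vector 3 and 0.12 with averaged probe sets. That of E2f3 was -0.041 without empty vector 3 and 0.27 with averaged probe sets. Its other probe set, 1427462_at, lay close to the filter, with signals of 1.44 to 24.8, and read 0.47. Ccne1, cyclin E1, read 155, 113 and 165 against 155, 166 and 196 (0.24, interval 0.0069 to 0.48, adjusted p = 0.278), with a difference of 0.095 without empty vector 2 and 0.14 with averaged probe sets. Ccne2, cyclin E2, read 324, 297 and 324 against 289, 279 and 268 (-0.17, interval -0.33 to -0.0033, adjusted p = 0.284), with all 3 miR-9/9* arrays below all 3 empty vector arrays. Both cyclins missed the threshold, and the difference between them was not tested.

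Of 62 further replication and S-phase genes, such as the ORC subunits, other E2F factors and the retinoblastoma family, 59 were measured. In the arm comparison 0 rose and 0 fell without the block, and 1 rose and 0 fell with it. The call is 1.69% of the 59, below the background of 2.96%. At an unadjusted p under 0.05, 3 passed without the block (5.08%, background 4.6%) and 9 with it, 6 higher and 3 lower (15.3%, background 17%), so that both shares were near those of all genes. The called gene was E2f6, a repressive member of the E2F family (probe set 1448835_at), which read 496, 422 and 475 with empty vector and 710.2, 572 and 709.9 with miR-9/9*. All 3 miR-9/9* arrays were above all empty vector arrays, with means of 464 ± 38.4 and 664 ± 79.9 (SD, n = 3) and a difference of 0.50 (interval with the block 0.35 to 0.65). Its limma adjusted p was 0.00653 with the block and 0.492 without it, and the call was lost with the block when the variance trend was left out or probe sets were averaged. The next by p, picked from their values, were not called. Orc5, an origin recognition subunit, read 327, 319 and 337 against 437, 402 and 374 (0.29, adjusted p = 0.0809 with the block). Rbl1, a relative of the retinoblastoma protein, read 578, 529 and 684 against 469.6, 498 and 463 (-0.31, adjusted p = 0.115). The median difference of the 59 was 0.0019 and 31 lay above 0, so as a group they stood near the median over all genes.

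More of the list was called between replicate numbers than between arms, as was so over all genes. A moderated F-test of the number in the fit with arm, 2 arrays a number, called 17 of 39 genes (43.6%), against a background of 24.3% of all genes. The range over the 3 numbers exceeded the difference between arms for 35 of 39 genes (89.7%), but so it did for 84.1% of all genes. These measures are unlike, since the range takes the extremes of 3 means of 2 arrays and the difference sets 2 means of 3 arrays apart. Such a range tends to be the larger even where neither differs, so no conclusion is drawn from this count. Number 3 was highest in 12 called genes, 30.8% of the 39 against 9.2% of all genes, or 70.6% of those called against 37.9% of all called genes. These were the helicase genes Mcm4, Gins1 and Cdc45, the fork genes Pcna, Rfc3, Rfc4, Rpa1, Prim1 and Fen1, the nucleotide genes Rrm2 and Tk1, and Slbp. Number 3 was lowest in 4, Tyms, E2f1, E2f2 and E2f3, which is 10.3% of the 39 against 11.9% of all genes, or 23.5% of those called against 48.9%, and thus no more than over all genes. Uhrf1 was highest in number 1. Both number 3 arrays lay above the other 4 for 17 genes (background 16.4%) and below them for 5, which were Mcm3, Tyms, Ung, E2f1 and E2f3 (background 21.2%). The shift of number 3 from the mean of numbers 1 and 2 had the same sign in both arms for 32 of 39 genes (82.1%), against 74.3% of all genes. Genes here that the naming rule does not cover, such as Gins1, Rfc4, Prim1 and Ung, were picked from their values.

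**Figure D3:**
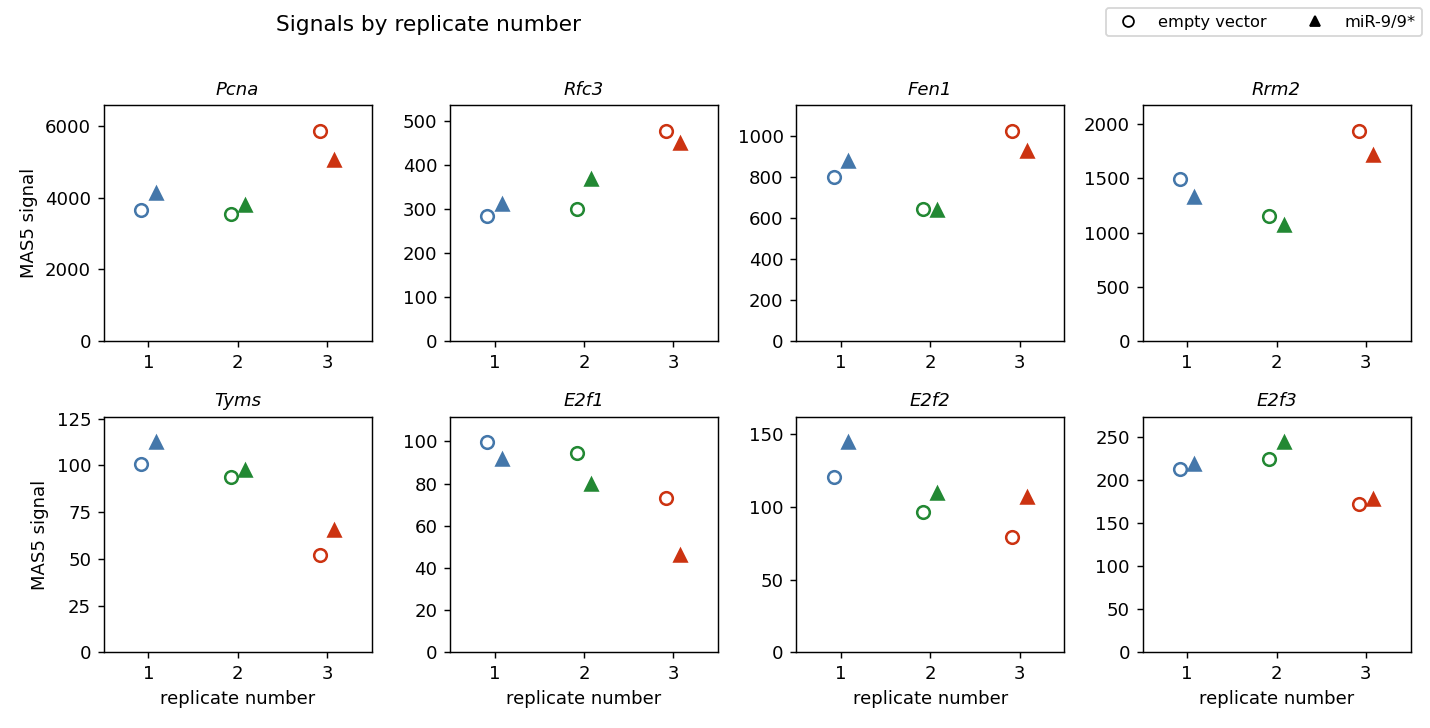
MAS5 signal (y axis, from 0) by replicate number (x axis) for 8 genes, 1 panel a gene, with circles for empty vector and triangles for miR-9/9*. In Pcna, Rfc3, Fen1 and Rrm2 both number 3 arrays lie above the other 4, while in Tyms, E2f1 and E2f3 both lie below; for E2f2 the miR-9/9* array of number 3 (107) stays above the empty vector array of number 2 (96.4).

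The largest upward shifts of number 3 were those of Rfc4 and Rfc3. Rfc4, a subunit of the clamp loader, read 584, 538 and 929 on empty vector arrays 1, 2 and 3 and 569, 624 and 793 on miR-9/9* arrays 1, 2 and 3, 1.49 times the mean signal of numbers 1 and 2 in number 3 (log2 shift 0.56, adjusted p of the number test 0.00852). Rfc3, another clamp loader subunit, read 283, 299.5 and 478 and 312, 369 and 449.6 (0.54, adjusted p = 0.00767). Pcna, the clamp they load, had a ratio of 1.44 (0.52, adjusted p = 0.0204). In all 3 genes both number 3 arrays stood clear of the rest, with the empty vector array the higher of the pair. Fen1, the nuclease that trims Okazaki fragments, read 802, 645 and 1026 and 876, 637 and 925, highest in number 3 and lowest in number 2 in both arms (0.40, adjusted p = 0.00618). Prim1, the catalytic primase subunit, read 615, 557 and 759 and 644, 606 and 775 (0.34, adjusted p = 0.0171). Of the 11 genes of this role, 6 were called (54.5%, against 24.3% of all genes). In 10 number 3 was highest (90.9%, against 31.7% of all genes). The median shift was 0.30, against -0.048 over all genes.

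Rrm2 had the smallest p of the list (adjusted p = 0.00223), with number 3 at 1.45 times the mean of numbers 1 and 2 and number 2 lowest in both arms. Its probe set, 1434437_x_at, carries the suffix of sets with probes that can match other transcripts, as do those of Fen1, Mcm5, Pold1 and Ccne1. The 2 other Rrm2 probe sets, 1416120_at and 1448226_at, were also high in number 3, with shifts of 0.99 and 0.67 on the same scale. Tk1, next to it in nucleotide supply, had a shift of 0.31 (adjusted p = 0.0211). The Tyms probe set used was low in number 3, which read 52.1 and 65.3, 0.580 times the mean of the other numbers (log2 shift -0.65, adjusted p = 0.00853). With its probe sets averaged, including 1427810_at and 1427811_at below the filter, Tyms was not called (adjusted p = 0.224). Its other probe set above the filter, 1442192_at, had a shift of 0.19. Among licensing genes 3 of 12 were called (25.0%, against 24.3% of all genes), with Cdc45 at 0.41 (adjusted p = 0.0177), Gins1 at 0.36 (0.0436) and Mcm4 at 0.31 (0.0219). Averaged probe sets ended all 3 calls, with adjusted p of the number test at 0.0901, 0.176 and 0.0757. After quantile normalization Gins1 (0.0573) and Mcm4 (0.0654) were not called, while Cdc45 was (0.0182). Mcm4 read 1442, 1255 and 1707 on the empty vector arrays and 1381, 1249 and 1604 on the miR-9/9* arrays. The other MCM genes did not pass, and Mcm3 was the one of them with both number 3 arrays below the rest. Slbp had a shift of 0.32 (adjusted p = 0.0496), and Uhrf1 read highest in number 1 in both arms (adjusted p = 0.0214). The other Uhrf1 probe set, 1415811_at, read 173, 184 and 136 and 171, 182 and 137, highest in number 2 in both arms. With averaged probe sets Uhrf1 was not called (adjusted p of the number test 0.0721).

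The probe sets used for the activating E2F factors read low in number 3, but the calls did not outlast several alternatives. E2f1 in number 3 was 0.652 times the mean of numbers 1 and 2 (shift -0.53, adjusted p = 0.0317), E2f3 0.778 times (-0.33, 0.0321) and E2f2 0.791 times (-0.29, 0.0447). Averaging all probe sets of a gene, also those below the filter, ended all 3 calls, with adjusted p = 0.745 for E2f1, 0.0852 for E2f2 and 0.158 for E2f3. Another E2f1 probe set, 1417878_at, had a shift of 0.32. The calls also depended on the scaling. After quantile normalization the adjusted p-values of the number test were 0.110, 0.0940 and 0.0693 for E2f1, E2f3 and E2f2. After centring arrays on their medians they were 0.0751, 0.113 and 0.0715. The number 3 arrays had the lowest median signals, and the part of this in the calls was not tested. The cyclin E genes, Cdc7 and Dbf4, which complete this role, were not called. Of the 17 called genes 16 kept the sign of the number 3 shift under the deposited scaling, quantile normalization and centring, the exception being Uhrf1. The split did change. Called genes with number 3 highest against lowest were 12 and 4 of 17 as deposited, 9 and 2 of 12 after quantile normalization, and 17 and 1 of 19 after centring, and over all genes the same counts were 939 and 1213 of 2479, 903 and 879 of 2143, and 1502 and 655 of 2474. The median shift of number 3 over the 39 genes was 0.13 against -0.048 over all genes as deposited, 0.11 against 0.016 after quantile normalization and 0.23 against 0.052 after centring.

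**Figure D4:**
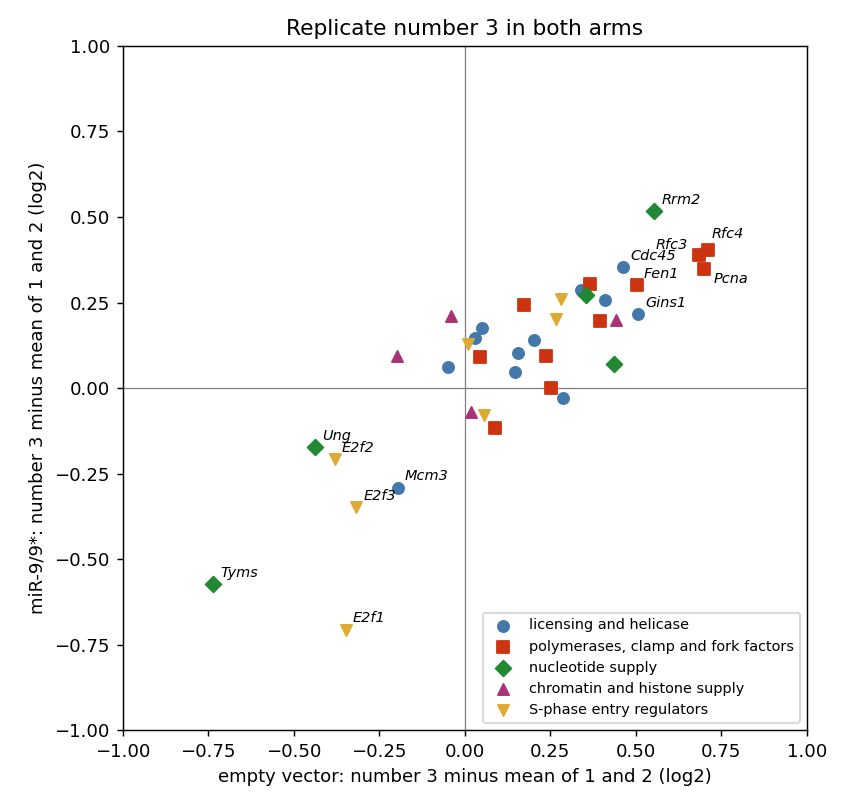
Each point is 1 gene, at the shift of number 3 from the mean of numbers 1 and 2 in the empty vector arm (x axis, log2) and in the miR-9/9* arm (y axis, log2), with marker and colour for the role. Fork genes and Rrm2 reach the upper right, Tyms and the E2F activators the lower left, and 32 of 39 points have the same sign on both axes (82.1%, against 74.3% of all genes).

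Several genes lay on the same side in number 3 without passing the number test. Mcm3, a helicase subunit, read 1238, 1115 and 1024 on the empty vector arrays and 1259.8, 1303 and 1044 on the miR-9/9* arrays, both number 3 arrays below the rest (shift -0.24, adjusted p = 0.0883). Ung, the glycosylase that removes uracil from DNA, read 191, 193 and 138 and 186, 213 and 175, also lowest in number 3 (-0.30, adjusted p = 0.085). Rpa2, a subunit of the protein that coats single-stranded DNA, read 435, 432 and 491 and 428, 472 and 534, highest in number 3 (0.21, adjusted p = 0.113). None of these 3 genes was called. Dbf4, the activator of CDC7, read 729, 728 and 879.7 and 730.0, 779 and 869.5 (0.23, adjusted p = 0.0739). Gins2 had a shift of 0.33 (adjusted p = 0.0592) and Rrm1, the large subunit of ribonucleotide reductase, of 0.25 (0.151). Other genes had high p-values in the number test, which does not show that they were the same. Hells, a chromatin remodeller, read 855, 828 and 853 and 799.8, 867 and 793 (adjusted p = 0.904), and Pola1, the catalytic subunit of polymerase alpha, read 503, 513 and 524 and 488, 529 and 542 (adjusted p = 0.566). For Hells this holds for the probe set used only. Another above the filter, 1453361_at, read 174, 186 and 86.2 and 141, 162 and 98.3, a number 3 shift of -0.74. The shift of Hells probe set 1430139_at was -0.17. Ccne2 and Pole, whose arms were separated, had number 3 shifts of -0.010 and -0.014 (adjusted p = 0.731 and 0.785).

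The count between numbers rested on the variance model and on number 3. Without a variance trend 2 of 39 genes (5.13%) were called, Rrm2 and Tyms, both with adjusted p = 0.0279 (background 8.52%). Without the filter on dim probe sets 7 were called (17.9%, background 5.81%), so there the count fell over all genes as well. With number 3 left out of both arms, numbers 1 and 2 differed in 3 genes, Uhrf1 (adjusted p = 0.00387), Rrm2 (0.0148) and Fen1 (0.0155), against a background of 7.74%. With number 3 out, the share of the list, 7.69%, was near that of all genes. Without empty vector 3 alone, 6 genes were called (15.4%, against 15.0% of all genes), a share near that of all genes. Without empty vector 1 the count was 9 (23.1%, against 19.6%), without empty vector 2 it was 13 (33.3%, against 20.2%). The count was 10 without miR-9/9* 1 (25.6%, against 19.9%), 13 without miR-9/9* 2 (33.3%, against 22.4%) and 18 without miR-9/9* 3 (46.2%, against 25.9%). Leaving out number 1 of both arms gave 14 (35.9%, against 23.8%) and number 2 gave 11 (28.2%, against 17.2%). With averaged probe sets 11 were called (28.2%, against 21.5%). Rrm2 was called in 18 of 18 alternatives, Fen1 in 16 and Rfc3, Rfc4, Prim1 and Tyms in 15 each, whereas Slbp was called in 4 and Rpa1 and E2f3 in 6. Genes just inside the threshold were Slbp (0.0496) and Rpa1 (0.0461), and just outside it Gins2 (0.0592) and Dbf4 (0.0739). What the numbers stand for, cultures, days or hybridisations, cannot be told apart from these labels. The lower primary granule sum of number 3, shared in the miR-9/9* arm by Prtn3 alone, was not tested for its part in the shifts. Nor was the lower median signal of number 3.

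Other probe sets of the same genes bear on single values. Among 87 probe sets of the 39 genes, 36 others lay above the filter, for 28 genes, with differences between the arms of -0.22 to 0.47 and a median of 0.044. For the genes called between numbers, 16 others of 15 genes could be read, and 13 had a number 3 shift of the same sign. Only this sign was compared, and 1415811_at of Uhrf1, which shared it, was highest in number 2 and not in number 1. The opposite sign was found for 1442192_at of Tyms (0.19), 1430058_at of Slbp (-0.47) and 1417878_at of E2f1 (0.32). The low number 3 signals of Tyms and E2f1 therefore hold for the probe set used and not for every probe set of the gene.

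The further replication genes and a list of G2/M and mitosis genes, 37 of 38 measured, were read beside the 39 with the same number test. Of the 59 further genes 17 were called between numbers (28.8%, near the background of 24.3% of all genes), 13 with number 3 highest and 3 with it lowest. Of the 37 mitotic genes 14 were called (37.8%), 13 of them with number 3 highest. Gins4, another GINS subunit, picked from its values, read 290.4, 289 and 477 and 252, 239 and 432 (number 3 shift 0.73, adjusted p = 0.00122). Aurka, a mitotic kinase picked from its values, read 379, 362 and 645 and 343, 335 and 545 (0.72, adjusted p = 0.00121). Called genes with number 3 highest were 22.0% of the further genes and 35.1% of the mitotic genes, against 9.2% of all genes. Most called genes of both lists were thus highest in number 3. Among all called genes that share was 37.9% as deposited, 42.1% after quantile normalization and 60.7% after centring, so it depends on the scaling. The median number 3 shift was 0.12 for the further genes and 0.22 for the mitotic genes, beside 0.13 for the 39 and -0.048 for all genes. Between the arms the mitotic list had 0 called genes in either fit (limma; unadjusted p under 0.05 in 0 without and 7 with the block, 18.9% against a background of 17%), a median of -0.092 and 8 of 37 genes above 0, where the 39 had a median of 0.066 and 26 above 0. The difference between the lists was not tested. In their promoter windows an E2F word was found in 26 of 45 further genes (57.8%) and 5 of 32 mitotic genes (15.6%), and CCAAT in 25 of 32 mitotic genes (78.1%).

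**Figure D5:**
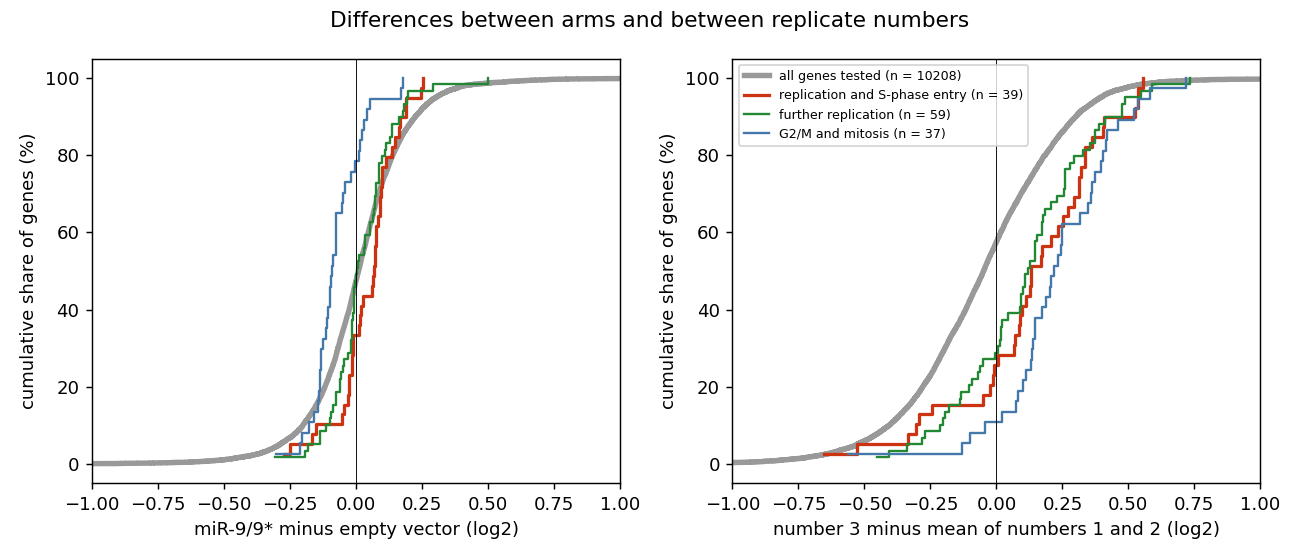
Cumulative share of genes (y axis, %) against the log2 difference between the arms (left) and the log2 shift of number 3 from numbers 1 and 2 (right), for all genes tested, the 39 genes, 59 further replication genes and 37 G2/M genes; values beyond 1 are off the axis. On the left the lists have medians of 0.066, 0.0019 and -0.092 against 0.0091; on the right their medians are 0.13, 0.12 and 0.22 against -0.048.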

How the data were processed

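RNA of 6 samples of 32D cells was hybridised to 1-colour Affymetrix arrays, with biotinylated cRNA from 6 ug of total RNA per the labels' protocols. The authors deposited MAS5 signal intensities on a linear scale, per the submitters' processing notes, which give no version of MAS5; the trimmed mean, leaving out 2% at either end, is 100 on each array. Gene names came from a 2016 platform annotation: of 45101 probe sets, 64 controls included, 34958 carry 1 symbol and 932 several; 34754 were matched by Entrez ID to RefSeq (GRCm38.p6), which changed 0 symbols. Signals were taken as log2(signal + 16). Probe sets with a mean below the median, 4.86 or a signal of 12.9, were left out. The arms, and the 3 replicate numbers in a fit with arm, were tested two-sided in R 4.3.3 with the moderated linear models of limma 3.58.1 and its trended variance prior, adjusted by Benjamini-Hochberg over all 10208 genes at 0.05; the fits were tested on simulated data. After subtracting each arm's mean, arrays of the same number correlated at 0.491, 0.616 and 0.680 over these genes, above the limit of 0.1, so the numbers were read from the data as pairing the samples, and blocked values stand beside results they change. Named genes are those called in either fit of the arms, the 5 largest and 5 smallest differences, those with 1 sign in all 3 pairs and an unadjusted block p under 0.05, the 5 with the largest range between numbers, and a set picked for its roles; of the further genes, the called ones and otherwise the 4 with the smallest block p. The genes, lists and tests were chosen with earlier results of these data known. Alternatives were other pseudocounts, filters, scalings, variance models, array weights, averaged probe sets and left-out arrays. The averages took in all probe sets of a gene, also those below the filter.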

Additional observations from a re-analysis of the deposited data

How the results depend on the processing

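Over 28 alternatives the count of the 39 genes called between the arms stayed at 0, with a smallest adjusted p of 0.120 by limma in any of them. The count over all genes, 6 as fitted, was 302 with the replicate block, 2 with a pseudocount of 1, 0 without the filter, 3 without the variance trend and 26 with array weights; together with the block it was 282 and 293 with pseudocounts of 1 and 64, 74 without the filter, 339 with a stricter filter, 273 after quantile normalization, 266 after centring, 38 without the trend, 397 with array weights, 187 with averaged probe sets, and 162, 340 and 357 without number 1, 2 or 3 of both arms. Leaving out single arrays gave 0 to 7. The count of further replication genes, 0 as fitted, was 1 with the block and with the block joined to each pseudocount, either filter, either scaling, array weights or the loss of number 1, and 2 without number 2 or 3. The median over the 39 genes, 0.066, ran from -0.014 (without miR-9/9* 3) to 0.12 (without empty vector 3) when single arrays were left out, and was -0.011 without empty vector 2. The 17 genes called between numbers became 7 without the filter, 2 without the trend and 11 with averaged probe sets, and 3 to 18 when arrays or numbers were left out, alternatives added after the data were seen; without numbers 2 or 3 of both arms they were 11 and 3. Of 23 named genes 10 kept the sign of the arm difference in all 28 alternatives and 13 did not, none of the 13 called in any. Averaged probe sets, with and without the block, turned E2f1 to 0.026, Tyms to -0.075 and Fen1 to 0.086; array weights turned Fen1 to 0.060 (0.010 with the block) and Uhrf1 to -0.026; quantile normalization turned Fen1 to 0.011; centring turned Pcna to -0.00069 and Slbp to -0.0069. With the block and without number 1 of both arms Pcna was -0.057 and Slbp -0.0048, without number 2 -0.023 and -0.051, and without number 3 Fen1 was 0.054 and Uhrf1 -0.016. Leaving out single arrays gave values on both sides of 0 for Cdc6 (-0.078 to 0.018), E2f3 (-0.041 to 0.18), Fen1 (-0.17 to 0.15), Mcm2 (-0.017 to 0.12), Mcm4 (-0.16 to 0.061), Pcna (-0.11 to 0.25), Rfc3 (-0.022 to 0.34), Rrm2 (-0.34 to 0.031), Slbp (-0.081 to 0.16), Tk1 (-0.015 to 0.19), Tyms (-0.097 to 0.34) and Uhrf1 (-0.011 to 0.24). The cause was not tested.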

Other observations

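Cenpe, a mitotic kinesin, had the smallest block p between the arms among the G2/M genes and read 281, 355 and 404 with empty vector and 268, 272 and 284 with miR-9/9* (log2 difference -0.30, limma adjusted p = 0.12 with the block). The 3 miR-9/9* arrays lay close together and the lowest empty vector array fell among them, so the arms overlapped. Within the pairs 15 of the 37 mitotic genes (40.5%) were lower in miR-9/9* in every pair, against 18% of all genes, and 2 (5.41%) were higher in every pair, against 21%. By limma 0 were called in either fit, and at an unadjusted p under 0.05 there were 0 without the block and 7 with it (18.9%, against 17% of all genes). Of the 39 replication genes 5 (12.8%) were lower in every pair. Cdc25b, a phosphatase that starts mitosis, went against its list between numbers and read 159.7, 182 and 109 with empty vector and 150.0, 193 and 112 with miR-9/9*, lowest in number 3 in both arms (adjusted p of the number test 0.00618).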
